A study of Homo sapiens with 30 samples.

Results

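The comparison described here is that of intestinal cell layers that met multi-walled carbon nanotubes (MWCNT) at 10 µg/ml for 1 h with layers that met none. It rests on 6 of the 30 arrays of the series, chosen by their titles, 3 biological replicates of each group. The MWCNT wells held a nanotube suspension of 1.5 ml over the cells, and the 1 h control wells (0 µg/ml) were given fresh medium on both sides. Every well of both groups carried the same living material, a human co-culture in which Caco-2 made up 75% and HT29-MTX 25%, grown for 14 days on a porous insert. Caco-2 came from a colorectal adenocarcinoma and differentiates toward absorptive cells, and HT29-MTX is a methotrexate-adapted colon carcinoma line that makes mucus. Both are tumour lines mixed by hand, so they stand in for an intestinal lining only in part. The labels name no control with dispersant and no particle, and the nanotube wells differ from the control wells in the suspension itself. Other wells of the series serve for comparison: MWCNT at 100 µg/ml for 1 h, titanium dioxide nanobelts (TiO2-NB) at 10 and 100 µg/ml for 1 h, and MWCNT at 10 µg/ml for 24 h with the 24 h control.

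Carbon nanotubes are rolled sheets of carbon atoms, and the multi-walled kind nests several such tubes; swallowed particles meet the gut lining first. Cells that sense a change at their surface or in their medium use transcription programmes that act within the hour: immediate early genes such as EGR1 and JUN, which MAP kinases switch on, and feedback inhibitors such as NFKBIA, which NF-kB itself switches on. Slower programmes handle foreign compounds (AHR), oxidants (NFE2L2), short supplies of amino acids (ATF4) and energy (mTORC1 and its inhibitor DDIT4). An array reads the amount of each RNA and neither protein nor transcription rate.

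The values are log2 levels, and they were made comparable between arrays by the authors with RMA. A gene is represented by its brightest probe set, 11963 genes in all, and a gene or probe set is called where limma gives a Benjamini-Hochberg adjusted p under 0.05 over the 22215 probe sets tested. Values after ± are standard errors of a log2 difference between groups of 3 arrays, unless given as SD. Array medians of the 6 arrays lay between 6.46 and 6.49, and the lowest correlation within a group was 0.998. On this scale 10% of the genes had a mean under 3.90 and 90% under 10.58.

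Some markers of the labelled cells read high, and none of the epithelial, enterocyte and goblet cell markers was called. The epithelial adhesion molecule EPCAM averaged 13.16 with MWCNT and 13.04 in controls, the enterocyte fatty acid carrier FABP1 13.87 and 13.85, and the secretory protein AGR2 13.11 and 13.11. Of 11 epithelial, 9 enterocyte and 8 goblet cell markers 0 were called. The goblet cell markers were mostly low. Their median level was 6.78, in a range from 4.16 to 13.11, where the median of all genes was 7.21. The epithelial and enterocyte markers had medians of 11.91 and 10.45. Goblet mucins were low in both groups, MUC2 at 5.96 with MWCNT and 6.10 in controls. The mean over 11 leukocyte markers lay between 5.64 and 5.66 in the MWCNT arrays and between 5.62 and 5.67 in the control arrays, with the pan-leukocyte gene PTPRC at 3.47 and 3.62. LYZ, which intestinal cells make too, and NKG7 were the 2 called members of that list (18.2%, where 2.71% of all genes rose). Neither passed without control replicate 1 or 2 or without any single MWCNT array. The 10 fibroblast markers and the 8 endothelial markers had 0 calls.

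Several of the array's control probe sets set the groups apart. The array's probe set for the 5′ end of 18S ribosomal RNA read 10.06, 9.66 and 9.81 in the MWCNT arrays and 8.61, 8.62 and 8.81 in the control arrays, a difference of 1.17 (exact permutation p = 0.1, the smallest that 3 arrays against 3 allow). The 18S probe sets for the middle and the 3′ end were higher by 0.699 and 0.166, the 28S probe set for the 5′ end by 0.471, the 3 ACTB probe sets by 0.107 to 0.128 and the spiked-in control CreX by 0.107 (exact p = 0.1 each). Those for the middle and 3′ end of 28S differed by -0.029 and -0.0144 (exact p = 0.7 and 0.9). The gap between the 3′ and 5′ probe sets, which widens as RNA breaks down, differed by 0.00191 for GAPDH and by -0.0203 for ACTB (exact p = 0.9 and 0.7). Since 18S moved with the exposure, each group of genes below is given with its count in a fit that holds 18S constant, where that count differs. The level held constant is that of the 18S probe set for the 5′ end alone. Its values did not overlap between the groups, which limits how far such a fit can tell 18S from the exposure.

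After 1 h with 10 µg/ml MWCNT, 940 of 11963 genes were called (7.86%), 324 higher (2.71%) and 616 lower (5.15%). Among probe sets, 1435 of 22215 were called (6.46%), 569 higher and 866 lower. How far falls outnumbered rises depended on the fit. The split was 725 higher and 768 lower after a second quantile normalisation, and 549 and 582 without control replicate 3. Without control replicate 1 it was 417 and 804. Most of the called changes were small. The median of the risen genes was 0.26 and that of the fallen genes -0.24, against -0.02 over all genes. At least 1.5-fold changes were found for 8 risen and 16 fallen genes. Of the fallen genes 196 changed by less than 0.2 on the log2 scale, 254 by 0.2 to 0.3, and 8 by 0.8 or more, and of the risen genes 82, 126 and 2. The arrays of the groups did not overlap for 317 of the risen and 608 of the fallen genes, while over all genes 9.72% had all MWCNT arrays above and 16% below (25.7% in all). The co-culture was read as a whole, so fewer cells of a kind and less RNA per cell cannot be told apart. The probe set count was 710 without MWCNT replicate 1, 758 without control replicate 2, 698 with the 18S level held constant, and 84 in a fit of these 6 arrays alone, of which 81 are among the 1435. Of 110 called genes named by rule, by size or within the lists, 28 passed in that fit and 67 in a fit of the 15 arrays of 1 h. Among the 15 called genes whose arrays did overlap, the vasoactive peptide gene UTS2 had the largest change (-0.95), and it is not among the 30 genes described next, which were limited to arrays without overlap. It read 3.87, 3.08 and 3.31 in the MWCNT arrays and 3.82, 4.47 and 4.83 in the control arrays.

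**Figure D1:**
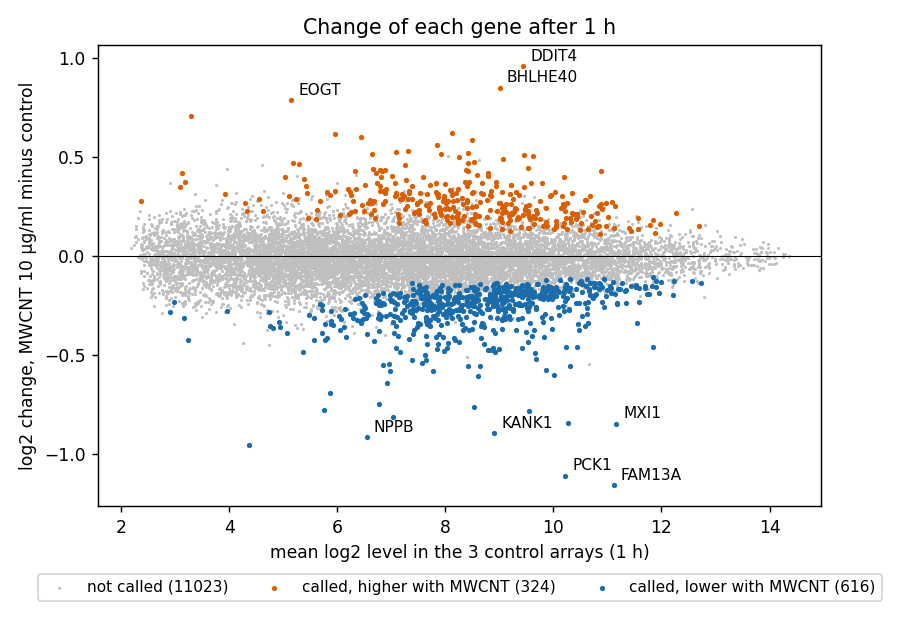
Log2 change of 11963 genes after 1 h (MWCNT at 10 µg/ml minus control, vertical axis) against the mean log2 level of the 3 control arrays (horizontal axis), with called genes in colour. The 324 risen and 616 fallen genes lie mostly within 0.4 of zero, and the outermost named points are DDIT4 and BHLHE40 above and FAM13A and PCK1 below.

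The largest rises were those of DDIT4, BHLHE40 and EOGT. DDIT4, a stress-induced inhibitor of mTORC1, read 10.37, 10.42 and 10.43 in the MWCNT arrays, against 9.35, 9.61 and 9.37 in the control arrays. All MWCNT arrays lay above all controls, and the difference of 0.96 ± 0.11 is 1.95-fold (adjusted p = 1.09e-05). BHLHE40, a transcriptional repressor of the circadian clock, had 9.80, 9.84 and 9.92 with MWCNT and 9.00, 9.14 and 8.88 in controls (0.85 ± 0.11, adjusted p = 3.00e-05). EOGT, which adds N-acetylglucosamine to EGF-like domains in the endoplasmic reticulum, had 6.01, 5.91 and 5.87 with MWCNT and a narrow 5.17, 5.12 and 5.15 in controls (0.79 ± 0.10, adjusted p = 3.10e-05). Its probe set is rather dim, with a mean of 5.33 over the 30 arrays, and a filter on dim probe sets left it out. In each of these 3 genes the gap between the groups was wider than the spread within either, which the choice by size and without overlap favoured.

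RNF111, MCM9, RIF1, PHF14, JADE3, SP2 and BMP2K were also among the 15 largest rises. RNF111, a ubiquitin ligase that removes inhibitors of SMAD signalling, read 8.81, 8.68 and 8.75 in MWCNT arrays and 8.10, 8.05 and 8.23 in controls, and with 0.62 ± 0.054 had the smallest adjusted p of the risen genes named (1.10e-07). MCM9, a helicase of homologous recombination, rose by 0.62 ± 0.085, RIF1, which steers the choice of repair at broken DNA ends, by 0.51 ± 0.088, and the chromatin readers PHF14 and JADE3 by 0.71 ± 0.15 and 0.53 ± 0.073. PHF14 is a dim gene here, at 3.90, 3.99 and 4.09 with MWCNT and 3.27, 3.13 and 3.46 in controls. The transcription factor SP2 rose by 0.56 ± 0.062. For MCM9, RIF1 and SP2 a second, dimmer probe set changed by -0.03, -0.06 and -0.02 and was not called. The kinase BMP2K rose by 0.60 ± 0.088, with 2 of its 4 probe sets called.

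AHR, TIGAR, CITED2, TANK and HIVEP1 make up the rest of the 15. AHR, the receptor for dioxins and plant indoles, read 8.97, 8.91 and 8.95 with MWCNT and 8.43, 8.30 and 8.54 in controls (0.52 ± 0.059, adjusted p = 6.91e-06). TIGAR, a p53-induced phosphatase that slows glycolysis, rose by 0.59 ± 0.068, and CITED2, which competes with HIF for its coactivators, by 0.51 ± 0.086. TANK, an adaptor between TRAF proteins and the kinase TBK1, rose in all 3 of its probe sets (0.51 ± 0.084, 0.49 ± 0.096 and 0.21 ± 0.044), and HIVEP1, a zinc finger protein that binds kappaB-like DNA, by 0.53 ± 0.097.

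FAM13A, which has a RhoGAP domain, fell most. Its arrays read 9.99, 10.00 and 9.89 with MWCNT and 11.03, 11.32 and 11.00 in controls, a change of -1.16 ± 0.089 or 2.23-fold (adjusted p = 3.24e-08). The other probe sets for it gave -1.24 ± 0.11 and -1.13 ± 0.096, both called. KANK1, which couples actin and focal adhesions, read 8.08, 7.93 and 8.01 with MWCNT, against 8.85, 8.95 and 8.91 in controls (-0.90 ± 0.065), and its adjusted p of 1.86e-08 was the smallest among the genes named. The arrays of both genes kept apart, as the choice of genes required.

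PCK1, PPARG, RARB, SIRT4 and MXI1 were also among the 15 largest falls. PCK1, the gate enzyme of gluconeogenesis, had 8.98, 9.24 and 9.12 with MWCNT and 10.04, 10.45 and 10.18 in controls (-1.11 ± 0.13, 2.16-fold, adjusted p = 1.46e-05). PPARG, a lipid-sensing nuclear receptor of the colon epithelium, read 8.81, 8.76 and 8.73 with MWCNT and 9.57, 9.65 and 9.43 in controls (-0.78 ± 0.064, adjusted p = 6.41e-08). RARB, a retinoic acid receptor, fell by 0.75 ± 0.092 on its brightest probe set, and its other 4 probe sets were not called (-0.29 to 0.14). SIRT4, a mitochondrial sirtuin, fell by 0.69 ± 0.10 on one probe set and by 0.69 ± 0.10 on the other. The MYC antagonist MXI1 had 10.22, 10.44 and 10.30 with MWCNT and 11.04, 11.40 and 11.07 in controls (-0.85 ± 0.084).

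NPPB, OLR1, SLA and KHDC4 fell as well. NPPB, the precursor of B-type natriuretic peptide, read 5.50, 5.79 and 5.61 with MWCNT and 6.49, 6.51 and 6.64 in controls (-0.91 ± 0.11, adjusted p = 8.79e-06). OLR1, a scavenger receptor for oxidised LDL, fell by 0.78 ± 0.15, SLA, a Src-like adaptor, by 0.60 ± 0.079, and KHDC4, an RNA-binding protein of splicing, by 0.76 ± 0.081. For OLR1 control replicate 3 (6.09) stood above the other controls (5.59 and 5.60), and the MWCNT arrays lay between 4.86 and 5.11. EGR1, CXCL8, DUSP10 and NFKBIA complete the 15 and are described with their groups.

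**Figure D2:**
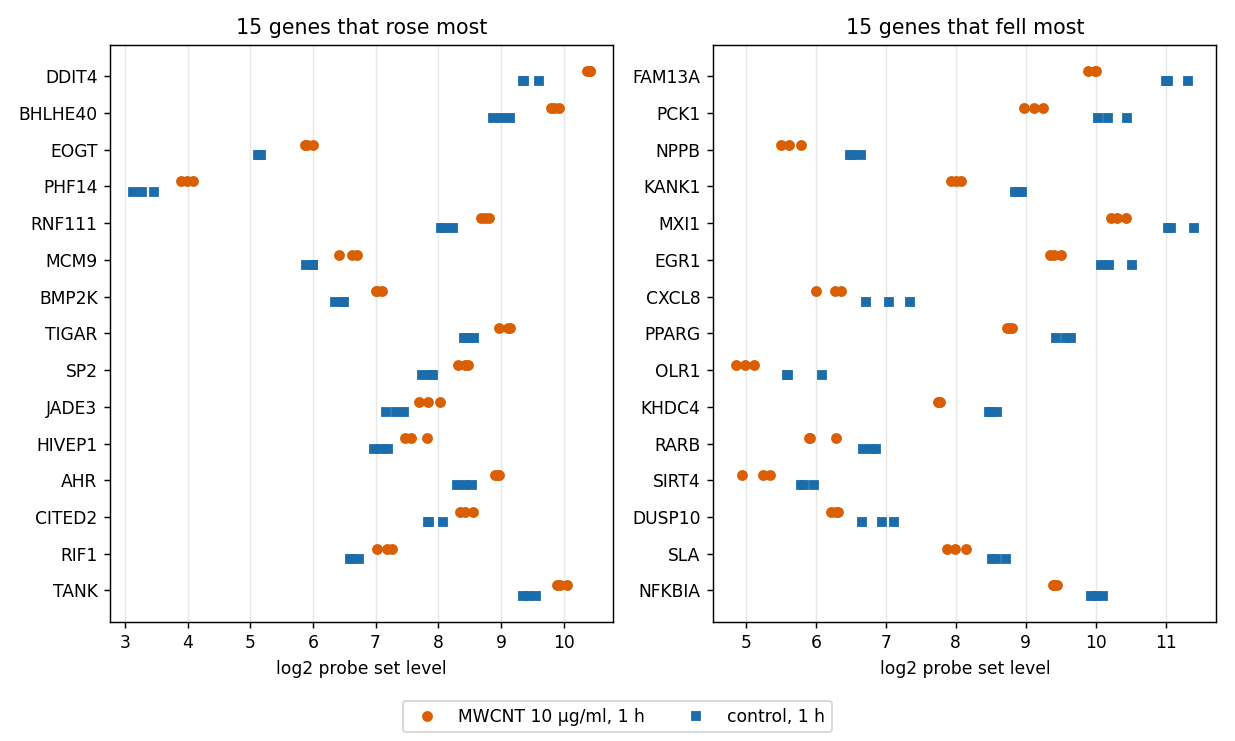
Log2 levels of the 15 genes that rose most (left) and the 15 that fell most (right), with circles for the 3 MWCNT arrays and squares for the 3 control arrays of 1 h. In every row the circles and squares do not overlap, which was part of how these genes were chosen.

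Of 18 measured immediate early factors 0 rose and 4 fell (22.2%, against 5.15% of all genes), with a median of -0.09 against -0.02 over all genes. EGR1, a zinc finger factor induced by ERK and serum response factor, read 9.35, 9.51 and 9.40 with MWCNT and 10.19, 10.52 and 10.08 in controls (-0.84 ± 0.12, adjusted p = 6.92e-05). JUN read 9.68, 9.78 and 9.78 with MWCNT and 10.10, 10.57 and 10.25 in controls (-0.56 ± 0.090), ATF3, a stress-induced partner of JUN, 8.18, 8.64 and 8.45 and 8.65, 9.18 and 8.84 (-0.46 ± 0.14), and IER2 fell by 0.23 ± 0.054. In each of these 4 genes control replicate 2 was the highest array. FOS and FOSB, which share the induction of EGR1, gave -0.09 ± 0.10 and -0.07 ± 0.12 and did not pass. EGR1 and JUN fell, and 1 gene rose, with the 18S level held constant. Without control replicate 2 or without MWCNT replicate 1, 2 passed.

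Among 20 feedback inhibitors of ERK and EGF ligands 2 rose and 2 fell (10% each, against 2.71% and 5.15% of all genes, median 0.04). DUSP6, a phosphatase specific for ERK, read 11.37, 11.29 and 11.26 with MWCNT and 10.88, 10.86 and 10.88 in controls (0.43 ± 0.093), and SPRY1, which blocks receptor signalling to ERK, rose by 0.25 ± 0.061. DUSP1 and DUSP10, phosphatases that act on p38 and JNK, fell by 0.52 ± 0.098 and by 0.64 ± 0.13. DUSP1 had 9.09, 9.22 and 9.18 with MWCNT and 9.54, 9.95 and 9.56 in controls. SPRY1 did not pass with 18S held constant, without MWCNT replicate 2 or without control replicate 1.

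In the NF-kB list 2 of 18 measured members rose and 2 fell (11.1% each, against 2.71% and 5.15% of all genes, median -0.01). The 2 that fell are feedback inhibitors: NFKBIA, which keeps NF-kB out of the nucleus, and TNFAIP3, an enzyme that removes activating ubiquitin chains. NFKBIA read 9.39, 9.45 and 9.41 with MWCNT and 9.93, 10.11 and 10.01 in controls (-0.60 ± 0.054, adjusted p = 1.61e-07). TNFAIP3 read 7.85, 7.84 and 7.93 with MWCNT and 8.34, 8.47 and 8.47 in controls (-0.56 ± 0.048, adjusted p = 1.10e-07). The 2 that rose are the kinase subunit CHUK (0.35 ± 0.069) and the DNA-binding subunit RELB (0.36 ± 0.080). RELB had 7.03, 6.89 and 6.70 with MWCNT and 6.56, 6.56 and 6.43 in controls. Other feedback inhibitors were not called and lay on both sides of zero (NFKBIB 0.11, CYLD 0.02, NFKBIE -0.10 and TNIP1 -0.16), as did other components (RELA 0.04, IKBKB -0.03, REL -0.17 and IKBKE -0.20). The same 4 genes passed with 18S held constant, and RELB did not pass without MWCNT replicate 1.

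The promoters of the inhibitors and of EGR1 are shown because these genes fell together and are textbook targets of factors that bind next to the start of transcription. As the 3 genes were picked as known targets, the matches marked in them are no result of these data. The sequences are the 250 bases before the start from RefSeq on GRCh38.p14, read 5′ to 3′ on the strand of the gene, with kappaB matches in capitals for NFKBIA and TNFAIP3 and CArG matches, the sites of serum response factor, in capitals for EGR1.
NFKBIA (chr14:35404750-35404999, minus strand): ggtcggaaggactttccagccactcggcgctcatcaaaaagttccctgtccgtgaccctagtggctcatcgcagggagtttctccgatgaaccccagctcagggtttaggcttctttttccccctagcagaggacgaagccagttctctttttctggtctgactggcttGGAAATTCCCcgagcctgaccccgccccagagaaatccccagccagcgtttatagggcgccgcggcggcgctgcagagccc
TNFAIP3 (chr6:137867009-137867258, plus strand): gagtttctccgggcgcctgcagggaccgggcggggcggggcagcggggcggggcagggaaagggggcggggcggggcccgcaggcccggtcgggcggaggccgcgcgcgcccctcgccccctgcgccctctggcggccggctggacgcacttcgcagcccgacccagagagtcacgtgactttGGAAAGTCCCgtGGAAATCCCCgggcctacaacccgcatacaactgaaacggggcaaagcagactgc
EGR1 (chr5:138465229-138465478, plus strand): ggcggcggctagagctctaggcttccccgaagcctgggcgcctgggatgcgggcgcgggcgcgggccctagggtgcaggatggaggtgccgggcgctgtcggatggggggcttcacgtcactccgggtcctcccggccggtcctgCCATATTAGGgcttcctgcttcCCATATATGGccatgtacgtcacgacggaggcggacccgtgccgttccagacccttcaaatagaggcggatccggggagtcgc
The match of NFKBIA begins 81 bases before the start, those of TNFAIP3 67 and 55 bases and those of EGR1 105 and 83 bases before it. A kappaB match on either strand lies in 9.57% of 27305 such windows and a CArG match in 1.14%. Among the 15 largest rises, 12 genes matched a window and 4 of these hold a kappaB match (MCM9, TIGAR, AHR and TANK), and among the 15 largest falls 11 matched and 2 hold one (SIRT4 and NFKBIA). A CArG match lies in 0 of the 12 and in 1 of the 11 (EGR1). The palindromic E-box CACGTG lies in 6.49% of all windows, in 3 of the 12 (BHLHE40, AHR and CITED2) and in 1 of the 11 (FAM13A), and the cAMP response element TGACGTCA in 1.77%, in 0 of the 12 and in 1 of the 11 (SIRT4). Both strands were searched, and none of these motifs contains another. These are matches of letters and no measure of binding.

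Of 21 measured chemokines and cytokines 0 rose and 4 fell (19%, against 5.15% of all genes; median -0.11). CXCL8, which draws neutrophils, read 6.00, 6.36 and 6.28 with MWCNT and 6.71, 7.34 and 7.04 in controls (-0.81 ± 0.15, adjusted p = 0.00153), and its second probe set gave -0.78 ± 0.13. LIF, a cytokine of the interleukin 6 family, fell by 0.24 ± 0.061. For CXCL3 (-0.35 ± 0.095) and CCL20 (-0.28 ± 0.085), attractants of neutrophils and of dendritic cells, the MWCNT and control arrays overlapped. CXCL1 did not pass (-0.30 ± 0.12, adjusted p = 0.145). Only CXCL8 of this list passed with 18S held constant, and without control replicate 2, MWCNT replicate 1 or MWCNT replicate 3 there were 2 falls. With the compared groups alone 0 passed. Of 17 JAK-STAT and SOCS genes 1 rose (BCL6, 0.24 ± 0.052) and 1 fell (SOCS2, -0.41 ± 0.12), 5.88% each against 2.71% and 5.15% of all genes. SOCS2 did not pass without control replicate 2 or 3 or MWCNT replicate 2 or 3, nor BCL6 without control replicate 2. BCL6 alone of them passed with 18S held constant. Of 25 interferon response genes 0 rose and 3 fell (12%, against 5.15% of all genes, list median -0.12). The 3 were IRF7, PSMB8 and OAS1, which fell by 0.20 to 0.26. No interferon response gene passed with 18S held constant, without control replicate 2 or without MWCNT replicate 1.

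Among the lists of energy, oxygen and the clock, DDIT4 and BHLHE40 are the members found in the 30 largest changes. In the mTORC1 list 1 of 17 rose (5.88%, DDIT4) and 3 fell (17.6%), against 2.71% and 5.15% of all genes. Each of the 3 restrains or monitors growth: DEPTOR, an inhibitor within the complex (-0.21 ± 0.043), TSC1 (-0.18 ± 0.055) and the AMPK subunit PRKAB2 (-0.36 ± 0.11). Without control replicate 2 or 3 or MWCNT replicate 2 or 3, 1 rose and 1 fell, as with 18S held constant. In the hypoxia and glycolysis list 0 of 28 rose and 4 fell (14.3%, against 5.15% of all genes; median -0.05). KDM3A, a HIF-induced histone demethylase, read 9.29, 9.29 and 9.31 with MWCNT and 9.77, 9.97 and 9.87 in controls (-0.57 ± 0.050, adjusted p = 1.10e-07), and the glucose transporter SLC2A3 11.40, 11.45 and 11.29 and 11.80, 11.97 and 11.75 (-0.46 ± 0.077). The oxygen sensors EGLN1 (-0.37 ± 0.075) and EGLN3 (-0.42 ± 0.12) fell as well, and VEGFA did not pass (0.08 ± 0.069). KDM3A and SLC2A3 passed with 18S held constant. Of 17 clock genes 3 rose and 1 fell (17.6% and 5.88%, against 2.71% and 5.15% of all genes). PER2 (0.32 ± 0.060) and NFIL3 (0.23 ± 0.061) rose beside BHLHE40, while DBP, an activator under control of the clock, read 6.93, 6.96 and 6.82 with MWCNT and 7.19, 7.48 and 7.29 in controls (-0.42 ± 0.076). Second, dimmer probe sets of PER2 and DBP gave -0.15 and 0.13 and were not called. BHLHE40 and DBP passed with 18S held constant.

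Regulators of lipid and sugar use were among the called genes. Of 24 nuclear receptors 1 rose (4.17%) and 4 fell (16.7%), against 2.71% and 5.15% of all genes. The vitamin D receptor VDR rose (0.18 ± 0.055), while its other probe sets gave -0.11 to 0.21 and were not called. PPARG, RARB, their shared partner RXRA (-0.24 ± 0.044, second probe set -0.04, not called) and the xenobiotic receptor NR1I3 (-0.37 ± 0.11) fell. With 18S held constant, or without control replicate 2 or 3 or MWCNT replicate 1 or 3, 0 receptors rose and 3 fell, and PPARG and RARB were called in each case. SREBF1, the master factor of lipid synthesis, read 8.23, 8.22 and 8.14 with MWCNT and 7.92, 7.85 and 7.72 in controls (0.37 ± 0.053, adjusted p = 1.02e-04). INSIG2, which holds SREBP in the endoplasmic reticulum, fell by 0.46 ± 0.093, and FASN, the fatty acid synthase, rose by 0.24 ± 0.062 (second probe set -0.06, not called). This leaves 16 of 19 sterol and fatty acid genes without a call (10.5% rose and 5.26% fell, against 2.71% and 5.15% of all genes). None of 17 genes of fatty acid oxidation and PPAR targets was called (smallest adjusted p = 0.0685, ECI1). In the FOXO, insulin and gluconeogenesis list 1 of 23 rose (4.35%, against 2.71% of all genes), CITED2. In this list 2 fell (8.7%, against 5.15%), PCK1 and the growth factor binder IGFBP3 (-0.33 ± 0.093). In both the sterol list and the FOXO list 1 gene rose and 1 fell with 18S held constant. This was also so for the FOXO list without any MWCNT array or control replicate 2, and for the sterol list without MWCNT replicate 1 or control replicate 1 or 3.

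Of 12 genes of the MYC network 1 rose and 2 fell (8.33% and 16.7%, against 2.71% and 5.15% of all genes). There was 1 fall without MWCNT replicate 1 or 3 or control replicate 2 or 3. MYC read 10.26, 10.24 and 10.22 with MWCNT and 10.00, 9.89 and 9.91 in controls (0.31 ± 0.060), while its antagonists MXI1 and MNT (-0.22 ± 0.059) fell. In the ribosome biogenesis list, whose genes MYC is known to drive, 6 of 22 rose and 2 fell (median 0.06). These are 27.3% and 9.09%, against 2.71% and 5.15% of all genes. WDR43 read 8.84, 8.75 and 8.86 with MWCNT and 8.41, 8.37 and 8.55 in controls (0.37 ± 0.042, adjusted p = 5.61e-06), and RRS1 rose by 0.35 ± 0.046, NIP7 by 0.36 ± 0.073 and the helicase DDX21 by 0.25 ± 0.051. DDX10, another helicase, fell by 0.24 ± 0.046. With 18S held constant 3 rose and 1 fell, and of the MYC network MXI1 alone passed. With the compared groups alone 0 ribosome biogenesis genes passed. Of 25 splicing genes 4 rose and 2 fell (16% and 8%, against 2.71% and 5.15% of all genes). The kinases CLK4 (0.31 ± 0.060) and CLK1 (0.27 ± 0.067) and the factor HNRNPH1 (0.28 ± 0.076, other probe sets -0.09 to 0.31) rose, and SRSF5 fell (-0.19 ± 0.044). With 18S held constant, or without MWCNT replicate 1, 1 rose and 1 fell, and without control replicate 1 or 2 there were 2 and 1.

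Mitotic genes had 7 falls (20.6%, against 5.15% of all genes) and 0 rises among 34 measured, with a median of -0.12. KIF20A, a kinesin of cell division, read 7.62, 7.54 and 7.58 with MWCNT and 7.93, 7.85 and 8.00 in controls (-0.35 ± 0.064), and AURKA, HMMR and UBE2C fell by 0.24 ± 0.049, 0.28 ± 0.062 and 0.19 ± 0.051. Holding 18S constant left 2 falls, a fit of the arrays of 1 h alone left 3, and a fit of the compared groups alone left 0. Without control replicate 2 there were 6 falls and without MWCNT replicate 2 there were 4, and without any other single array there were 3, with 1 rise without control replicate 3. Of 16 p53 targets 2 rose (12.5%, against 2.71% of all genes) and 3 fell (18.8%, against 5.15%). BAX, which opens the mitochondrial membrane in apoptosis, read 8.74, 8.74 and 8.76 with MWCNT and 8.27, 8.17 and 8.30 in controls (0.50 ± 0.066, adjusted p = 4.03e-05), and TIGAR rose with it. XPC, PLK2 and GADD45A fell by 0.23 ± 0.054, 0.34 ± 0.090 and 0.20 ± 0.058, and the common p53 targets CDKN1A and MDM2 did not pass (0.04 ± 0.073 and 0.14 ± 0.078). Both rises kept their call in every alternative run. Of the falls 1 was left without MWCNT replicate 1, without control replicate 2 or with 18S held constant. None was left without MWCNT replicate 3, with the arrays of 1 h alone or with the compared groups alone. In the BCL2 family of 15, BAX rose and the survival factor MCL1 fell on its brightest probe set (-0.17 ± 0.036), 6.67% each against 2.71% and 5.15% of all genes. The other probe sets of MCL1 pointed upward (0.12 to 0.16) and were not called, so its direction is unsure.

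Stress programmes had calls in both directions. NFE2L2, the factor that switches on antioxidant genes, read 10.68, 10.63 and 10.58 with MWCNT and 10.40, 10.37 and 10.53 in controls (0.20 ± 0.046). Of the 22 genes on its list 2 rose (9.09%) and 1 fell (4.55%), against 2.71% and 5.15% of all genes. SLC7A11, the cystine importer, rose too (0.27 ± 0.077) and the exporter ABCC2 fell (-0.19 ± 0.056), and HMOX1, its best known target, did not pass (0.12 ± 0.090). With 18S held constant, or without MWCNT replicate 1, 0 genes of the list passed, and 1 rose without MWCNT replicate 2 or control replicate 2 or 3. AHR was the only called gene of 8 on its list (12.5%, where 2.71% of all genes rose), and its target CYP1A1 did not pass (0.15 ± 0.11, adjusted p = 0.461). In the integrated stress response 4 of 21 rose (19%, against 2.71% of all genes) and 1 fell (4.76%, against 5.15%). MTHFD2 (0.24 ± 0.049), SLC3A2 (0.15 ± 0.036), SLC7A11 and CHAC1 (0.43 ± 0.13) rose, and STC2 fell (-0.47 ± 0.10). DDIT3 and TRIB3 of this list did not pass (0.22 ± 0.095 and 0.05 ± 0.080), and with 18S held constant 2 rose and 0 fell. Without any MWCNT array or control replicate 1, 2 rose and 1 fell, and without control replicate 3, 1 rose and 2 fell. Where 2.71% of all genes rose and 5.15% fell, PDIA3 (0.16 ± 0.035) was the only one of 21 endoplasmic reticulum genes called (4.76%). HSPA1L (-0.29 ± 0.069) and HSF1 (-0.15 ± 0.041, second probe set 0.10) fell among 17 heat shock genes (11.8%). MT2A (-0.23 ± 0.061) fell among 12 metallothionein and zinc genes (8.33%). None of these 4 passed with 18S held constant, and HSPA1L, HSF1 and MT2A did not pass without control replicate 2, where 1 other heat shock gene fell.

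Genes of adhesion and of junctions were called in both directions. Of 32 actin and focal adhesion genes 3 rose and 3 fell (9.38% each, against 2.71% and 5.15% of all genes). After KANK1, CCN1, a matrix protein induced by YAP, read 7.52, 7.63 and 7.55 with MWCNT and 8.02, 7.96 and 8.12 in controls (-0.47 ± 0.052, adjusted p = 5.61e-06), and the small GTPase RHOB fell by 0.46 ± 0.12. The integrin ITGAV rose by 0.22 ± 0.053. Of 22 junction genes 3 rose (13.6%, against 2.71% of all genes) and 1 fell (4.55%, against 5.15%). TJP1, the scaffold of tight junctions, read 10.37, 10.16 and 10.25 with MWCNT and 9.94, 9.91 and 10.01 in controls (0.31 ± 0.055), NECTIN2 and CTNNB1 rose by 0.14 ± 0.034 and 0.15 ± 0.046, and the polarity protein PARD3 fell by 0.19 ± 0.047. Holding 18S constant, 1 adhesion gene rose and 3 fell, and 1 junction gene rose and 1 fell. Without MWCNT replicate 1 or control replicate 2, 0 adhesion genes rose and 2 fell, and 2 junction genes rose and 0 fell, and without MWCNT replicate 3, 1 adhesion gene rose and 2 fell. The membrane mucin MUC13 rose by 0.23 ± 0.048 as the only called gene of 17 mucus genes (5.88%, where 2.71% of all genes rose). Of 26 endocytosis, 22 lysosome and 25 brush border genes 0 were called, where 7.86% of all genes were, and no difference between these lists was tested. The scavenging receptors LRP2 (0.32 ± 0.11, adjusted p = 0.0847) and LRP1 (0.32 ± 0.12, adjusted p = 0.107) came nearest in the first of these.

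Developmental signalling and the Kruppel-like factors changed in both directions. With RNF111, the ubiquitin ligase SMURF1 rose in the TGF-beta list (0.33 ± 0.063), while SMAD3, the effector of the pathway, read 8.38, 8.25 and 8.30 with MWCNT and 8.58, 8.78 and 8.62 in controls (-0.35 ± 0.084). In all 2 of 23 rose (8.7%) and 3 fell (13%), against 2.71% and 5.15% of all genes. With 18S held constant, or without control replicate 2, the 2 ligases passed alone. Without MWCNT replicate 3 or control replicate 3 there was 1 fall. KLF5, which promotes division in intestinal crypts, had 9.62, 9.47 and 9.59 with MWCNT and 8.99, 8.96 and 9.26 in controls (0.49 ± 0.077), and KLF11 (-0.41 ± 0.058), KLF10 (-0.24 ± 0.069) and KLF2 (-0.39 ± 0.12) fell among 14 factors (7.14% rose and 21.4% fell, against 2.71% and 5.15% of all genes). KLF6 was -0.55 with an adjusted p of 0.0578 and did not pass. With 18S held constant, or without MWCNT replicate 2 or 3 or control replicate 2 or 3, 1 factor rose and 1 fell. Among 45 genes of oxidative phosphorylation 2 fell (4.44%, near the 5.15% of all genes), NDUFA2 and NDUFS4, by 0.16 ± 0.040 and 0.14 ± 0.039, and neither passed without MWCNT replicate 1 or with 18S held constant.

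**Figure D3:**
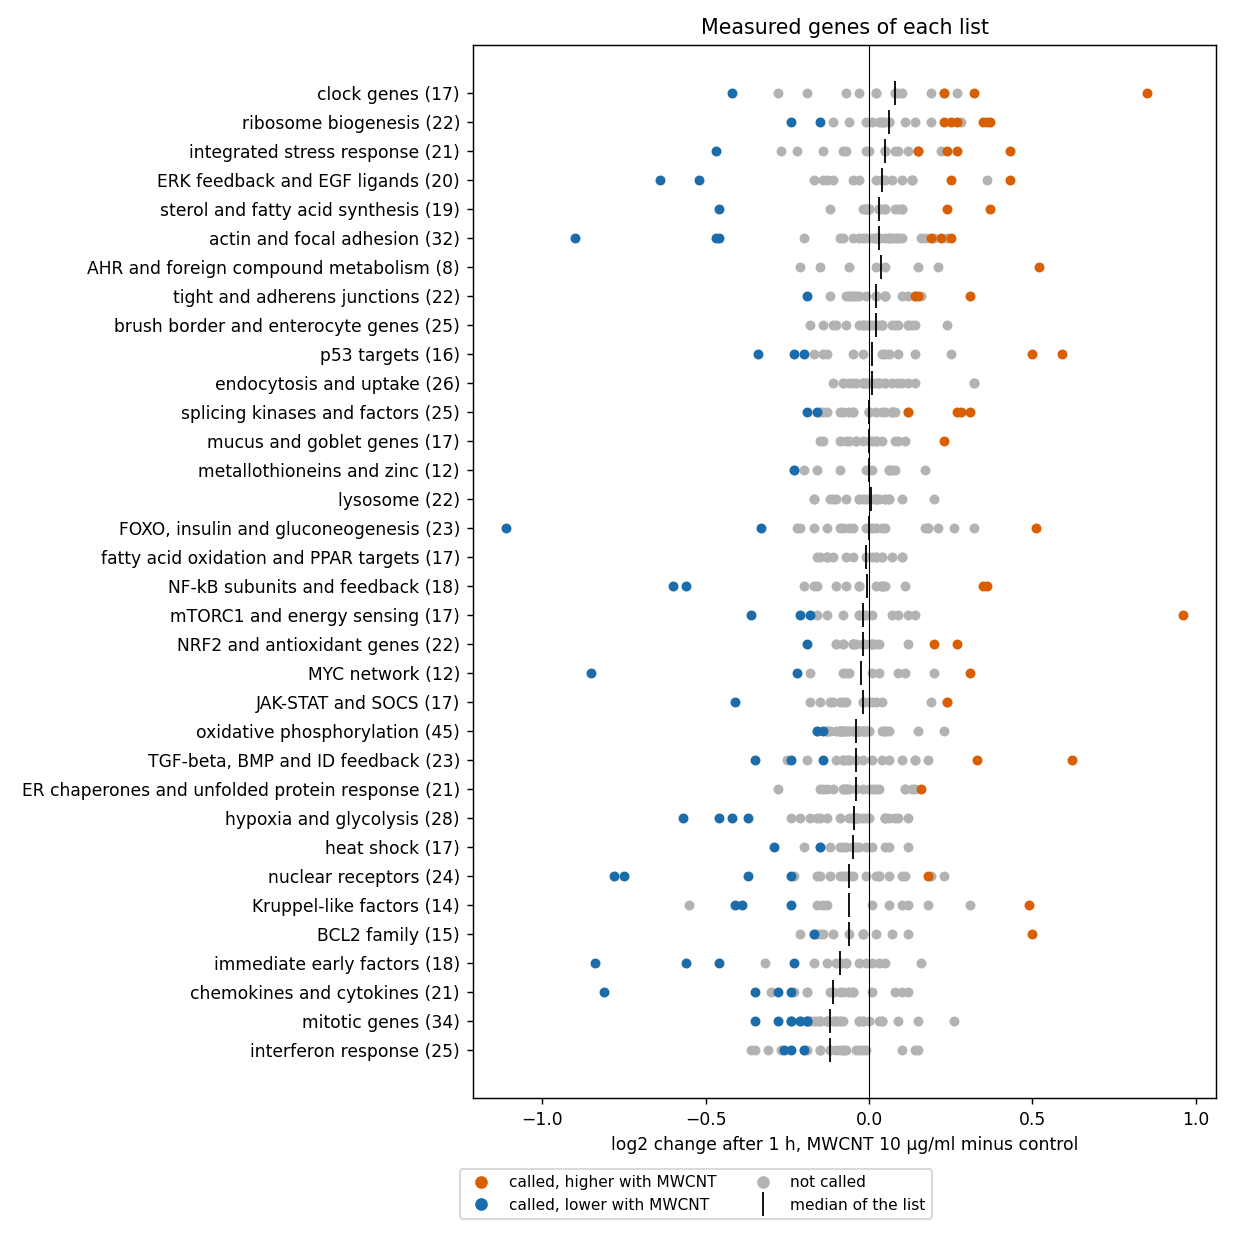
Log2 change after 1 h (MWCNT at 10 µg/ml minus control) of each measured gene of 34 lists, ordered by the median of the list (bar), with called genes in colour and the number measured in brackets. Interferon response and mitotic genes have the lowest medians (-0.12 each) and clock genes the highest (0.08), while most called genes of other lists lie on both sides of zero.

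Genes with more than 1 probe set allow a check within the array. Of 377 called genes with several probe sets, 63 had all of them called in the same direction, 112 had at least 1 other called in the same direction, and 0 had one called in the opposite direction. Most of the 377 thus had no other probe set called the same way. Over all probe sets 6.46% were called in either direction. In 245 all other probe sets had the same sign, and in the rest at least 1 did not. FAM13A, EGR1, CXCL8, SIRT4, DUSP10, SLA and BHLHE40 are among those with all probe sets called. MCM9, RIF1, SP2 and RARB are among those with another probe set of opposite sign. Uncalled other probe sets were also found for CITED2 (0.25), DUSP1 (-0.23), STC2 (-0.13), IGFBP3 (-0.08), BCL6 (0.21), SOCS2 (-0.24) and SLC2A3 (-0.27). The same held for JUN (-0.10 and -0.40), SRSF5 (-0.09 and 0.02), SMURF1 (0.16 and 0.14) and SMAD3 (-0.09 and -0.08), among others.

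Against MWCNT at 100 µg/ml for 1 h, 0 of 22215 probe sets were called by limma (0%), with 1518 at an unadjusted p under 0.05 and a smallest adjusted p of 0.395. A missed threshold does not show that the doses act alike. The doses share their 3 controls, so the changes are only set side by side. FAM13A was -1.16 at 10 and -1.04 at 100 µg/ml, NFKBIA -0.60 and -0.61, DDIT4 0.96 and 1.08, and EGR1 -0.84 and -0.52. For EGR1 the difference of the doses (10 minus 100) was -0.32 ± 0.12 (adjusted p = 0.684). Of the 30 genes with the largest changes, 29 were also called at 100 µg/ml, where 9.44% of genes were called, and OLR1 was not (-0.46, adjusted p = 0.0583). The smallest p between the doses belonged to EPS15L1, SLC2A9 and PTPN18, with differences of 0.25, 0.22 and 0.17.

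Between the particles at 10 µg/ml, 15 of 22215 probe sets were called (0.0675%), 9 higher with MWCNT (0.0405%) and 6 lower (0.027%). ZNF623, a zinc finger gene, read 7.06, 6.88 and 6.74 with MWCNT and 6.41, 6.40 and 6.53 with TiO2-NB, a difference of 0.45 ± 0.077 (adjusted p = 0.0309). NPPB was the 1 gene of the 30 called here, where 0.0752% of all genes were, with 5.50, 5.79 and 5.61 with MWCNT and 6.22, 6.29 and 6.09 with TiO2-NB (-0.57 ± 0.11, adjusted p = 0.0421). The gastrin-releasing peptide receptor GRPR (-0.33 ± 0.063) and NENF (-0.23 ± 0.043) were lower too, and ZBTB6, SCRN3, ZNF302 and FOXD1 higher by 0.24 to 0.35. The last 3 of these stood close to control with MWCNT (-0.05 to -0.08, not called), and below it with TiO2-NB (-0.32 to -0.39). With the arrays of 1 h alone, or with the compared groups alone, 0 probe sets were called. Without MWCNT replicate 1, 2 or 3 the count was 0, 2 and 1, and without TiO2-NB replicate 1 or 3 it was 0 and 1. Of the 30 genes, 25 were called with TiO2-NB at 10 µg/ml (9.52% of all genes) and 26 at 100 µg/ml (10.5%), both against the same control arrays.

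**Figure D4:**
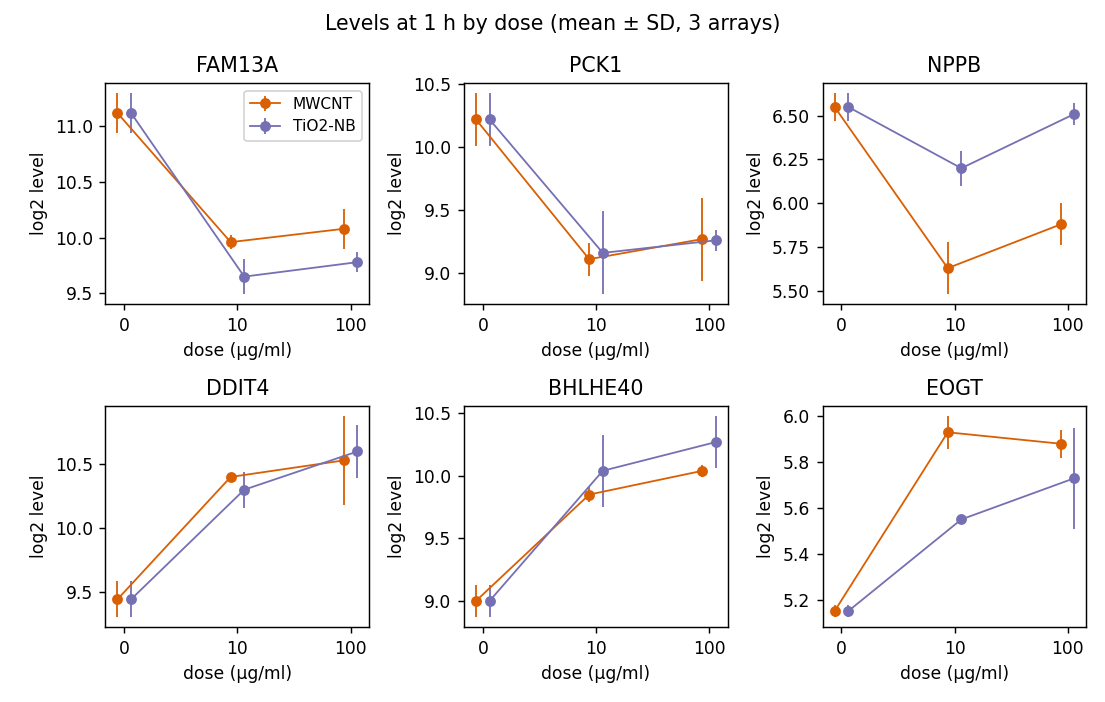
Mean log2 level ± SD of 3 arrays at 1 h for 6 genes by dose (0, 10 and 100 µg/ml, evenly spaced), with MWCNT and TiO2-NB offset sideways and the same control arrays at 0. FAM13A and PCK1 are low and DDIT4 and BHLHE40 high at each dose of both particles, while NPPB is lowest with MWCNT at 10 µg/ml (5.63) and at 6.51 with TiO2-NB at 100 µg/ml.

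After 24 h at the same dose few probe sets differed from the 24 h control. By limma 1 of 22215 was called (0.0045%), for the phosphatase PTP4A1 (0.53, adjusted p = 1.01e-04), which had been 0.06 at 1 h, and 0 genes were called by their brightest probe sets (952 probe sets at an unadjusted p under 0.05). The difference between the effects at 24 h and at 1 h was tested directly. It was called for 398 probe sets (1.79%), 288 with a higher (1.3%) and 110 with a lower effect at 24 h (0.495%), and after a second quantile normalisation for 364, split 206 and 158. Among the genes called at 1 h, the difference was called in 68 of the 324 that rose and 198 of the 616 that fell, each time opposite in sign to the 1 h change, against 2.35% of all genes (1.75% higher and 0.602% lower at 24 h). The call at 1 h and this test use the same 1 h arrays. The median change at 24 h was 0.02 over the 324 and 0.01 over the 616.

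For the 30 genes the changes at 24 h lay between -0.33 (CXCL8) and 0.40 (OLR1). For 24 of them the difference between the times was called, where 2.35% of all genes were. The 30 were chosen for large changes in the same 1 h arrays, so differences opposite to the 1 h change were favoured beforehand. FAM13A had a 24 h effect of -0.04 and a 1 h effect of -1.16, a difference of 1.12 ± 0.13 (adjusted p = 3.06e-05). DDIT4 had -0.02 and 0.96, a difference of -0.98 ± 0.16 (adjusted p = 0.00203). For EGR1 (0.59 ± 0.16, adjusted p = 0.0679) and CXCL8 (0.49 ± 0.21, adjusted p = 0.32) it did not pass. The controls themselves differed between the times in these genes: FAM13A averaged 12.02 ± 0.029 in the 24 h control and 11.12 ± 0.18 in the 1 h control, DDIT4 10.98 ± 0.052 and 9.44 ± 0.14, and EGR1 7.72 ± 0.079 and 10.26 ± 0.23 (SD, n = 3 each). The MWCNT wells of 1 h, at 10.40 for DDIT4, 9.85 for BHLHE40 and 9.42 for EGR1, lay between the 1 h control and the 24 h control (10.98, 10.64 and 7.72), whereas at 9.96 for FAM13A and 8.01 for KANK1 they lay outside that interval (12.02 and 9.44 at 24 h).

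**Figure D5:**
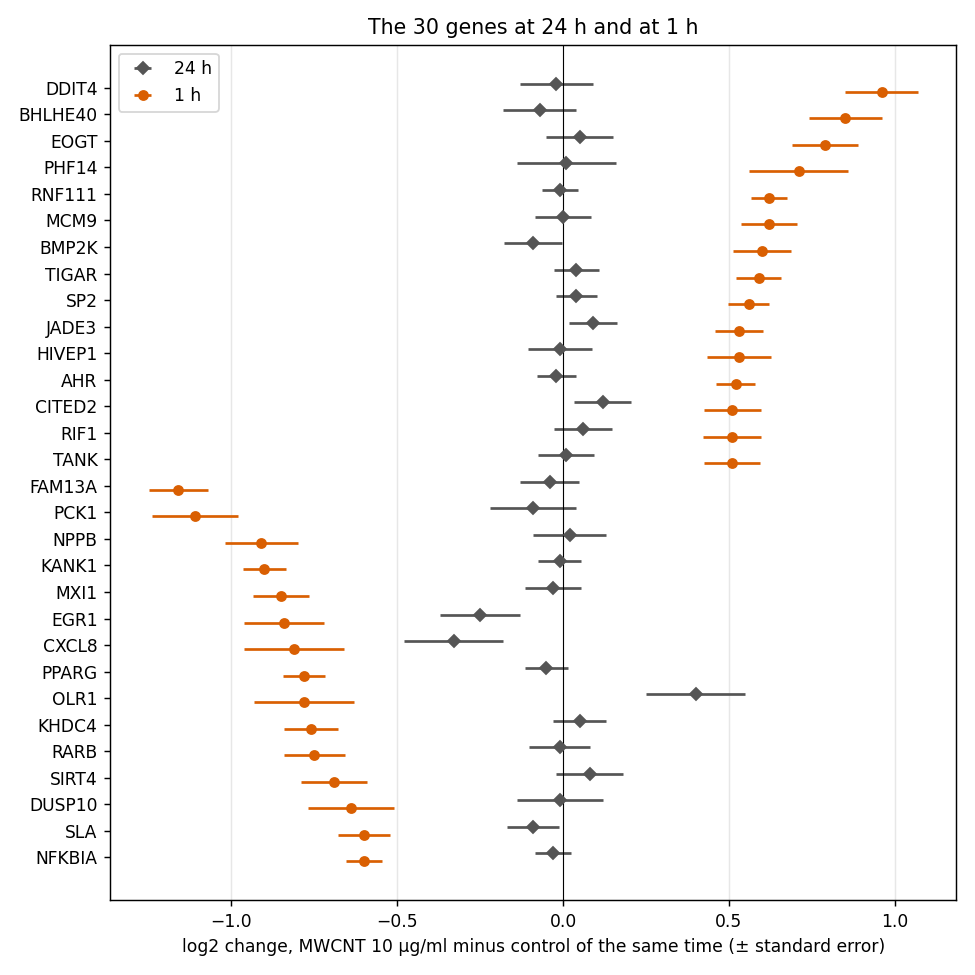
Log2 change (MWCNT at 10 µg/ml minus control of the same time) ± standard error for the 30 genes with the largest changes at 1 h among those whose arrays do not overlap, with diamonds for 24 h and circles for 1 h. At 24 h all 30 lie between -0.33 and 0.40, while at 1 h they lie beyond 0.5 on either side.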

How the data were processed

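RNA was measured on 1 array per sample. The log2 probe set levels are used as deposited. Per the submitters' processing notes the authors computed them with RMA, in a version and with a chip definition not given in the sources used here. RMA quantile normalisation makes each change relative to the other transcripts of the array. Of 22277 probe sets 62 control probe sets were left out. Genes were named where the platform table gives 1 symbol (19064 probe sets; 1043 have several and 2108 none).

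Group means over all 30 arrays were fitted with limma 3.58.1 in R 4.3.3 (lmFit, eBayes, two-sided, Benjamini-Hochberg over 22215 probe sets), so that all groups share the spread (20 residual and 3.68 prior degrees of freedom). The script was tested on simulated data. RNA quality probe sets were compared by exact two-sided permutation over arrays. Alternatives changed the arrays in the fit, the normalisation, the variance model, a filter on dim probe sets, a replicate block and an 18S covariate (the probe set for the 5′ end), and left out each array. Replicates are biological, per the labels. Arrays have no read depth, and 3 per group limit the precision.

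The rule names up to 15 called genes each way by size whose arrays do not overlap, up to 4 called members of each list by smallest p (otherwise the 2 nearest, not passing), their other probe sets, and up to 5 called genes each way in other comparisons (otherwise 3). Other genes were chosen after their values were seen, among them FOS, FOSB, CXCL1, VEGFA, HMOX1, CYP1A1, CDKN1A, MDM2, DDIT3, TRIB3, NR1I3, CHAC1, GADD45A, NIP7 and KLF6. The members, the 40 lists (772 of 887 entries measured) and this rule were chosen with earlier results of these data known.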

Additional observations from a re-analysis of the deposited data

Results flagged for a closer look

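The effect of MWCNT at 10 µg/ml differed between 24 h and 1 h, by a test of the difference itself, in 398 probe sets (1.79%). The genes named at 1 h were chosen for large changes in the same 1 h arrays, which favours a difference of opposite sign. Given as the effect at 24 h minus the effect at 1 h on the log2 scale, the genes named for their rise at 1 h stood at -0.98 (DDIT4), -0.92 (BHLHE40), -0.74 (EOGT), -0.63 (RNF111), -0.62 (MCM9), -0.70 (BMP2K), -0.55 (TIGAR), -0.52 (SP2), -0.44 (JADE3), -0.54 (HIVEP1), -0.54 (AHR) and -0.50 (TANK). Those named for their fall stood at 1.12 (FAM13A), 1.01 (PCK1), 0.93 (NPPB), 0.89 (KANK1), 0.82 (MXI1), 0.73 (PPARG), 1.17 (OLR1), 0.81 (KHDC4), 0.73 (RARB), 0.78 (SIRT4), 0.52 (SLA) and 0.57 (NFKBIA).

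Genes outside those 30 had differences between the times as well. UTS2 differed by 1.64, with an effect of 0.68 at 24 h (not called) and -0.95 at 1 h. The intestinal stem cell marker LGR5 differed by 1.00 and was called at neither time: it read 4.56, 5.00 and 4.96 with MWCNT and 4.20, 4.10 and 4.55 in controls at 24 h, and 3.87, 3.90 and 3.68 with MWCNT and 4.27, 4.06 and 4.44 in controls at 1 h. The second probe sets of UTS2 and LGR5 differed by 0.10 and -0.0041. CYP1A1, a target of AHR that oxidises foreign compounds, differed by -0.73. It read 6.75, 6.83 and 6.78 with MWCNT and 7.42, 7.28 and 7.37 in controls at 24 h (-0.57, adjusted p = 0.122), and at 1 h 7.59, 7.43 and 7.54 with MWCNT and 7.45, 7.32 and 7.33 in controls (0.15, adjusted p = 0.461).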

How the results depend on the processing

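The count of 1435 probe sets was 84 with the compared groups alone, 580 with the arrays of 1 h alone and 698 with the 18S level as a covariate, and 710 (without MWCNT replicate 1) to 1221 when 1 array was left out. With the replicate numbers as a block it was 1339, and it lay between 1169 and 1870 under the other alternatives. These 2 ends have fewer probe sets tested. The 1169 are of 11963, with 1 probe set per gene, and the 1870 of 14810, without dim probe sets. Deviations from the group mean correlated weakly between same-numbered arrays (0.0744, 0.133 and 0.0747), and between other pairs at -0.115 to 0.0344. Each array correlated best with its own number, so a weak pairing by number may exist, and the main fit does not use it. The count against MWCNT at 100 µg/ml was 0 throughout, with 0 to 2 when 1 array was left out. Against TiO2-NB at 10 µg/ml the count of 15 was 0 with the compared groups alone, 0 with the arrays of 1 h alone, 27 without dim probe sets, 8 after a second quantile normalisation, 35 with an intensity trend, 94 with array weights, 17 with the block, and 0 to 12 with 1 array left out. The count of 398 between the times was 152 with the compared groups alone, 357 with the block, and 203 (without MWCNT 24 h replicate 1) to 433 with 1 array left out. It was 221 to 250 without MWCNT 24 h replicate 3, MWCNT 1 h replicate 1, control 1 h replicate 3 or any of the 24 h controls. Of 110 called genes named by rule, by size or within the lists, none changed sign in any alternative run. With the block 102 of them passed, 67 with the arrays of 1 h alone, 61 with 18S and 28 with the compared groups alone. Other genes named in the text are not in this count. Values moved by over 1.5 times without control replicate 2 for CCL20 (-0.18), EGLN3 (-0.25), PRKAB2 (-0.23), KLF2 (-0.26) and RHOB (-0.30), without MWCNT replicate 1 for PSMB8 (-0.13), without MWCNT replicate 3 for SOCS2 (-0.25), and with 18S for EGLN1 (-0.21), SLC7A11 (0.145), PDIA3 (0.105), SMAD3 (-0.19) and CTNNB1 (0.08), and none of these passed there. Of the 30 largest, JADE3, HIVEP1, CITED2, CXCL8, OLR1, SIRT4 and DUSP10 did not pass with the compared groups alone. All 30 passed in the other alternatives that tested them, and the filter on dim probe sets left 2 untested, PHF14 and EOGT. With the compared groups alone 0 members passed in many lists, among them chemokines, mitotic, ribosome biogenesis, splicing, Kruppel-like and integrated stress response genes.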
